A study of Mus musculus with 12 samples.

Results

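The transcripts examined were those of the enzymes that place, oxidise and remove DNA methylation in adult mouse bone marrow Pre-Megakaryocyte/Erythroid progenitors (PreMegEs), the precursors shared by the platelet and red cell lineages. Genes were taken by symbol from a count table of 41128 genes, which held each of the 9 enzymes once: Dnmt1, Dnmt3a, Dnmt3b, Tet1, Tet2, Tet3, Idh1, Idh2 and Tdg. The 12 poly(A) libraries formed 4 groups of 3, and every library was made from the pooled marrow of 3 mice of a C57BL/6 background aged 12 to 16 weeks. WT PreMegEs came from wild type mice. P2+ and P2- PreMegEs came from Runx1 P1-GFP::P2-hCD4/+ reporter mice, which carry 1 Runx1 allele whose distal promoter (P1) drives GFP and whose proximal promoter (P2) drives a truncated human CD4, and were sorted by surface human CD4. KO PreMegEs lacked RUNX1C, the isoform made from P1, because both Runx1 alleles carried the GFP insertion at P1, while P2 and its product RUNX1B remained. The P2+ and P2- cells therefore carried a reporter allele that WT cells did not, and the effect of that allele cannot be told apart from that of the sort in a comparison with WT. Whether the KO libraries were prepared together with the WT libraries is not stated. Genotype and a possible batch therefore cannot be told apart between KO and WT.

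DNA methyltransferases add a methyl group to cytosine, mostly at CpG dinucleotides. Dnmt1 copies the mark to the new strand after replication, whereas Dnmt3a and Dnmt3b write it on unmethylated DNA. The Tet dioxygenases oxidise methylcytosine with 2-oxoglutarate as co-substrate, Idh1 and Idh2 make 2-oxoglutarate from isocitrate in the cytosol and in mitochondria, and thymine DNA glycosylase (Tdg) cuts out the further oxidised bases for replacement by base excision repair. Several of these genes are recurrently mutated in human myeloid malignancy.

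Library depth ranged from 10726098 to 14445026 counts, so that 3 counts, the limit allowed by a count of 0, corresponded to between 0.207 and 0.288 counts per 1000000 counts of the library (CPM). Kit, part of the PreMegE gate, lay between 732 and 1156 CPM in all 12 libraries. It was called lower in P2+ than in P2- (edgeR quasi-likelihood, adjusted p = 0.0224), as was Gata1. In KO against WT, Kit was called higher (adjusted p = 0.0484), as were Slamf1 and Gata1, whereas Gata2 was called lower. Fcgr3, low in the gate, reached at most 2.01 CPM. Fcgr2b, which the same CD16/32 antibody recognises, reached 17.1 CPM and was higher in P2+ than in P2- (16.6 ± 0.508 against 7.57 ± 0.579 CPM, adjusted p = 0.000511). Itga2b and Eng, whose proteins are also gated low, were at 38.7 to 320 and 93.9 to 153 CPM. The summed level of 10 megakaryocyte markers was 821 to 925 CPM in WT, 221 to 308 in P2-, 1250 to 1772 in P2+ and 489 to 546 in KO libraries. That of 9 erythroid markers was 1564 to 1717, 2496 to 2826, 795 to 990 and 2241 to 2512 CPM in the same order. Of these, 9 of 10 megakaryocyte markers were called higher and 7 of 8 tested erythroid markers lower in P2+ than in P2-, and 8 of 10 were lower and 6 of 8 higher in KO than in WT. The 10 markers of neutrophils and monocytes summed to 173 to 304 CPM in WT, 59.8 to 115 in P2-, 298 to 438 in P2+ and 79.2 to 127 in KO libraries. Ly6g, a neutrophil marker, reached at most 0.345 CPM, whereas Lyz2 reached 192 CPM and Mpo 185 CPM, both in P2+. S100a8 was at 11.6 CPM in replicate 2 of P2- and at 8.35 CPM in replicate 2 of P2+. Lymphoid markers summed to 25.2 to 41.4, 11.5 to 18.4, 28.4 to 80.2 and 18.1 to 22.8 CPM, with Cd3e at no more than 0.591 CPM and Rag1 at up to 28.5 CPM. Mast cell and basophil markers summed to 27.9 to 47.9, 24.5 to 28.3, 84.3 to 137 and 47.3 to 64.2 CPM. Between P2+ and P2-, 6 of 9 tested neutrophil and monocyte, 4 of 6 lymphoid and 3 of 3 mast cell and basophil markers were called higher and 0 lower. In KO against WT, 6 of 7 neutrophil and monocyte and 2 of 6 lymphoid markers were called lower, and 2 of 2 mast cell and basophil markers higher. In bulk libraries of this kind fewer cells of a type and less RNA per cell cannot be told apart, and the part of cell mixture in the differences below was not tested. Replicate 2 of both sorted fractions stood apart, with Xist at 0 CPM in P2- and 5.18 CPM in P2+ and the immediate early gene Fos at 1326 and 903 CPM. Fits without that replicate covered the 9 enzymes and the number of all genes called. They did not cover the marker genes above or the genes of the pathway lists below. Runx1 counts pool both promoters and were 369 ± 15.6 CPM in WT and 360 ± 20.4 CPM in KO libraries (SD, n = 3), so they do not check the loss of RUNX1C.

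The start sites annotated by RefSeq on GRCm38.p6 are shown first, because the promoters of methylation enzymes are themselves possible targets of methylation. The 9 genes had 14 annotated starts. The 250 bases before each start held between 2 and 51 CpG dinucleotides, against a median of 6 over 32851 promoters (quartiles 2 and 16), and 13 of the 14 starts were above that median. Dnmt1 had 2 CpGs before its most upstream start, 7 before the next and 26 before the third. The most upstream promoters of Dnmt1 and Dnmt3a, which held 2 and 38 CpGs and no annotated exon, are given below from 5′ to 3′ on the gene's own strand to show this contrast, together with 30 bases that lie 201 to 230 bases upstream of the third Dnmt1 start, inside an annotated exon of a Dnmt1 transcript that starts further upstream. Capitals mark the only match among the 14 starts to the E2F letters TTTNGCGC, searched on both strands and found in 1.13% of all promoters.
Before the first Dnmt1 start (chr9:20959889-20960138, minus strand): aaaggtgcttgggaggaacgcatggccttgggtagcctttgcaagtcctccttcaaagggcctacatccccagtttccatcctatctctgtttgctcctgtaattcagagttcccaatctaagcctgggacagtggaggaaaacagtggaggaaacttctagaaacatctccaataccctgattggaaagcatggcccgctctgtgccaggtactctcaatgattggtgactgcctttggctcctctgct
Before the first Dnmt3a start (chr12:3806730-3806979, plus strand): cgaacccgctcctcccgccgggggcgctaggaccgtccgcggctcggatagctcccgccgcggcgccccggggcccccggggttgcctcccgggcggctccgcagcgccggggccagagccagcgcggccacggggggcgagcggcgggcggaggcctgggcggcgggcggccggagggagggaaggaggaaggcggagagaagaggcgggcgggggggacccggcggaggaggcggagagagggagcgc
Upstream of the third Dnmt1 start (chr9:20952824-20952853, minus strand): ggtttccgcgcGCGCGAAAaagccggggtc

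The RUNX letters TGTGGT and the GATA letters AGATAA, present in 14.0% and 9.99% of all promoters, matched none of the 14 windows. GGGCGG, the GC box, matched 11 of the 14 and 32.7% of all promoters. These matches describe the letters of the windows alone.

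Each of the 9 enzymes passed the filter on low counts in every comparison, with raw counts from 97 for Tdg to 6034 for Tet3. More of them were called between the sorted fractions than in any comparison with WT. Dnmt1, Dnmt3a, Dnmt3b, Tet1, Idh1 and Idh2 rose in P2+ relative to P2- PreMegEs, whereas Tet2, Tet3 and Tdg did not pass the test (edgeR quasi-likelihood, adjusted p under 0.05). Over all 12836 genes tested, 20.1% were called higher and 17.0% lower, against 6 and 0 of the 9 enzymes. The median log2 fold change was 0.47 over the enzymes and -0.02 over all genes. None of the 6 reached 2-fold, which 12.7% of all genes did. The libraries of the 2 fractions did not overlap for 7 of the 9 (6 higher, and Tet2 lower), against 49.9% of all genes.

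Because P2+ and P2- samples with the same number deviated together, a fit with the replicate number as a block was also made. It called 7 of the 9 genes, the 6 above and Tet3, which was lower in P2+ by a log2 fold change of -0.14 (adjusted p = 0.0405, against 0.251 without the block). Calls over all genes rose as well, from 4762 to 6514 of 12836. Without replicate 2 of both fractions the count of called enzymes was again 6 (4554 genes in all). It was 3 without P2+ replicate 1 or without P2+ replicate 3, where Dnmt3b, Idh1 and Idh2 passed no longer, and calls over all genes fell to 3573 and 3596.

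In P2+ relative to WT, 2 of the 9 genes rose (Dnmt3a and Tet1) and 0 fell, where 9.45% and 7.07% of 12941 genes did, 0 changed 2-fold (3.84% of all genes) and 3 had libraries that did not overlap (35.5%). For P2- relative to WT, 0 rose and 2 fell (Dnmt1 and Tet1), where 6.85% and 9.60% of 12767 genes did, 0 changed 2-fold (4.68%) and 6 did not overlap (35.1%). In KO relative to WT, 0 rose and 3 fell (Tet1, Idh1 and Idh2), where 6.18% and 8.76% of 12784 genes did, 0 changed 2-fold (3.41%) and 4 did not overlap (31.8%). The median log2 fold change over the 9 genes was 0.11, -0.25 and -0.13 in these 3 comparisons, against 0.00, 0.01 and -0.00 over all genes. The 3 comparisons share the WT libraries and are therefore not independent of each other.

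**Figure D1:**
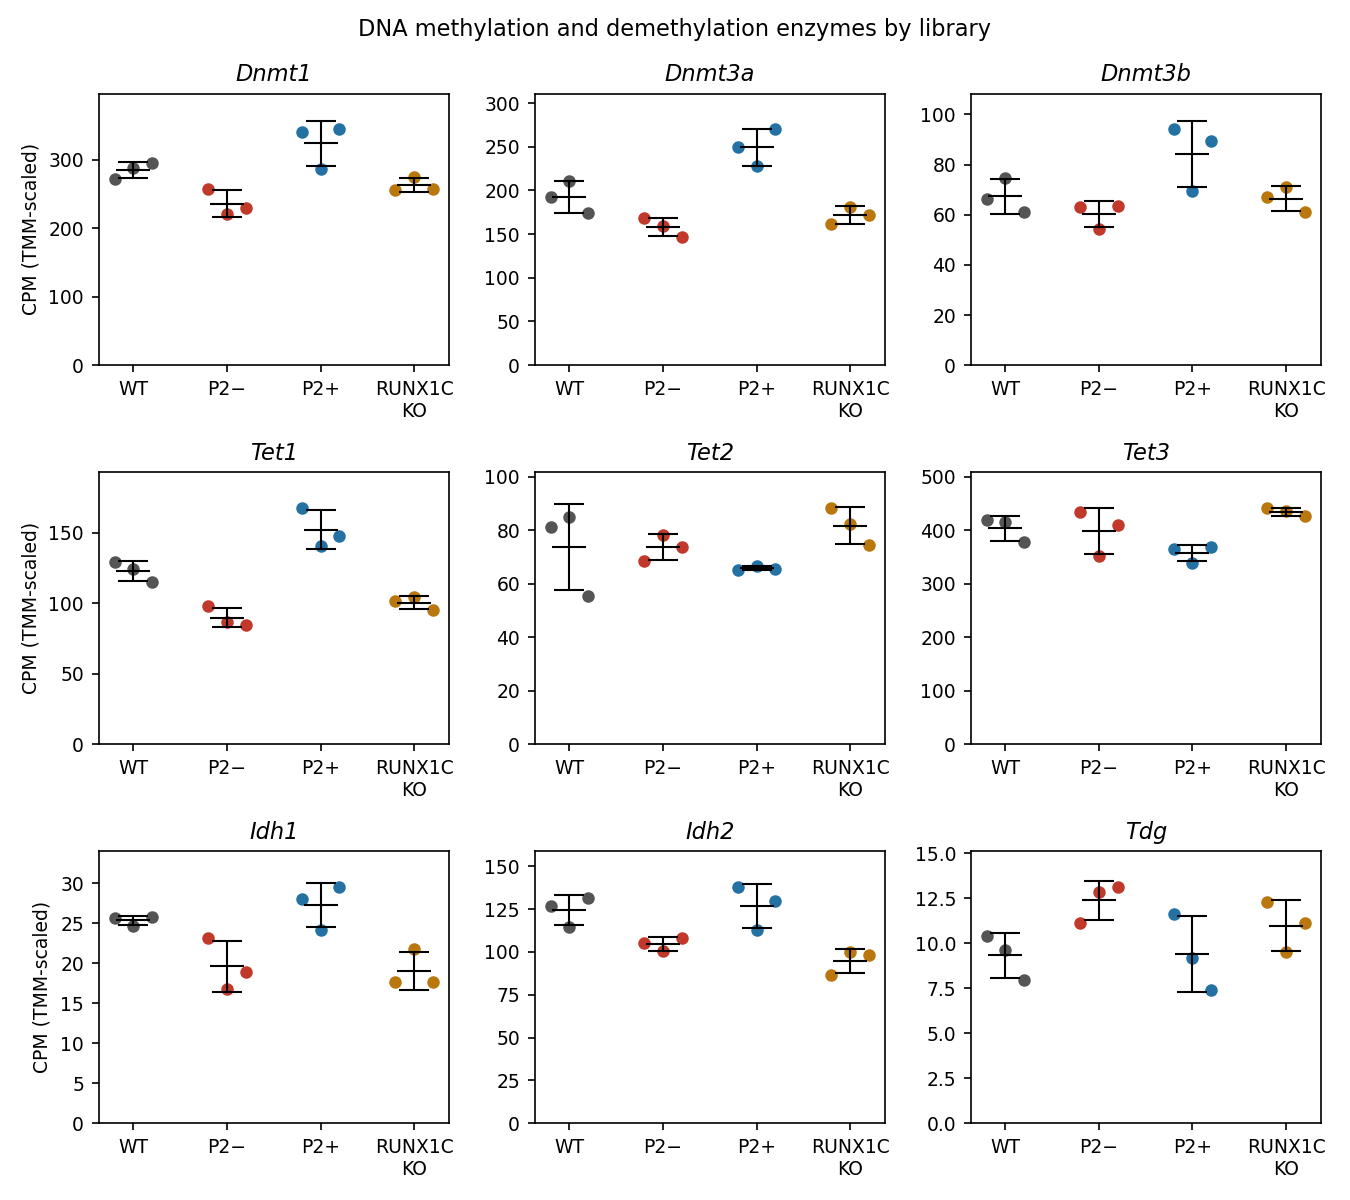
CPM of the 9 enzymes in the 12 libraries, by group (WT, P2-, P2+ and RUNX1C KO, 3 libraries each). Points are libraries and black bars the mean ± SD. Tet1 in P2+ sits between 141 and 168 CPM, above every library of the other groups, and in P2- between 84.7 and 97.8 CPM.

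Among the methyltransferases, Dnmt1 (ENSMUSG00000004099, chr9:20907209-20959888 on GRCm38, minus strand) was the most abundant, whether as CPM or per length. Its level was 272, 288 and 295 CPM in the 3 WT libraries, 258, 220 and 230 in P2-, 340, 286 and 345 in P2+ and 257, 274 and 258 in KO. P2+ and P2- did not overlap, but P2+ replicate 2 fell within the WT range and every pair of neighbours in the order P2-, KO, WT, P2+ overlapped. Between the fractions Dnmt1 was 1.39-fold higher in P2+ (log2 0.47 ± 0.10 SE, adjusted p = 0.00525). It was lower in P2- than in WT (log2 -0.27 ± 0.08, adjusted p = 0.0495), a call lost when any 1 library other than P2- replicate 1 was left out (adjusted p from 0.0555 to 0.136). For P2+ against WT the log2 fold change was 0.19 (95% interval -0.00 to 0.38, adjusted p = 0.170), and for KO against WT it was -0.13 (-0.25 to 0.00, adjusted p = 0.192). Without P2+ replicate 2 the difference between P2+ and WT was 0.27 and passed (adjusted p = 0.0230).

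Dnmt3a (ENSMUSG00000020661, chr12:3806007-3914443, plus strand) gave 193, 211 and 174 CPM in WT, 168, 159 and 147 in P2-, 250.1, 228 and 270.3 in P2+ and 161, 181 and 172 in KO. P2+ stood above all other libraries, and the ranges of the other 3 groups overlapped in the order P2-, KO, WT. The P2+ level was 1.59-fold that of P2- (log2 0.67 ± 0.09, adjusted p = 0.000497) and exceeded WT (log2 0.38 ± 0.09, adjusted p = 0.0211). The second call was lost without WT replicate 1, WT replicate 3 or P2+ replicate 3 (adjusted p = 0.0750, 0.0751 and 0.0758). Dnmt3a in P2- did not pass against WT (log2 -0.28, 95% interval -0.48 to -0.08, adjusted p = 0.0570), although its libraries did not overlap, and KO did not either (log2 -0.17, -0.33 to -0.02, adjusted p = 0.135). Leaving out WT replicate 3, the lowest of its group, gave -0.35 (adjusted p = 0.0416) for P2- and -0.24 (adjusted p = 0.0256) for KO, and leaving out P2- replicate 2 gave -0.29 (adjusted p = 0.0447) for P2-. The P2- difference also passed with no filter, with 1 fit over all 12 libraries, with upper quartile scaling, with total counts alone and with DESeq2 (adjusted p = 0.0389, 0.0351, 0.0419, 0.0309 and 0.0231).

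Dnmt3b (ENSMUSG00000027478, chr2:153649450-153687730, plus strand) was measured at 66.1, 74.8 and 61.2 CPM in WT, 63.3, 54.3 and 63.3 in P2-, 94.2, 69.3 and 89.2 in P2+ and 66.9, 71.1 and 61.2 in KO. P2+ replicate 2 lay within the WT range, and neighbours in the order of the means overlapped throughout. P2+ exceeded P2- by a log2 fold change of 0.50 ± 0.13 (adjusted p = 0.0136), which became 0.42 (adjusted p = 0.0545) without P2+ replicate 1 and 0.46 (adjusted p = 0.0517) without P2+ replicate 3. Against WT, P2+ differed by 0.33 (95% interval 0.06 to 0.59, adjusted p = 0.0901), and by 0.45 (adjusted p = 0.00655) without P2+ replicate 2, and it also passed without the filter on low counts (log2 0.32, adjusted p = 0.0412). KO and WT were close (log2 -0.03, -0.22 to 0.16, adjusted p = 0.882). A stretch of 1434 bases of Dnmt3b is 93.9% identical to Dnmt3c, which had at most 26 counts in any library.

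Per length, the 3 methyltransferases together reached 63.4 ± 2.62 RPKM (CPM divided by the kilobases of annotated exon) in WT, 53.3 ± 3.76 in P2-, 75.4 ± 8.07 in P2+ and 58.9 ± 2.64 in KO (SD, n = 3). Dnmt1 made up 61.0% of the sum in WT, 60.0% in P2-, 58.3% in P2+ and 60.5% in KO. Dnmt3b exceeded Dnmt3a per length in every group (13.2 against 11.6 RPKM in WT), in contrast to their order in CPM, because the annotated exons of Dnmt3a cover 16642 bases and those of Dnmt3b 5106.

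**Figure D2:**
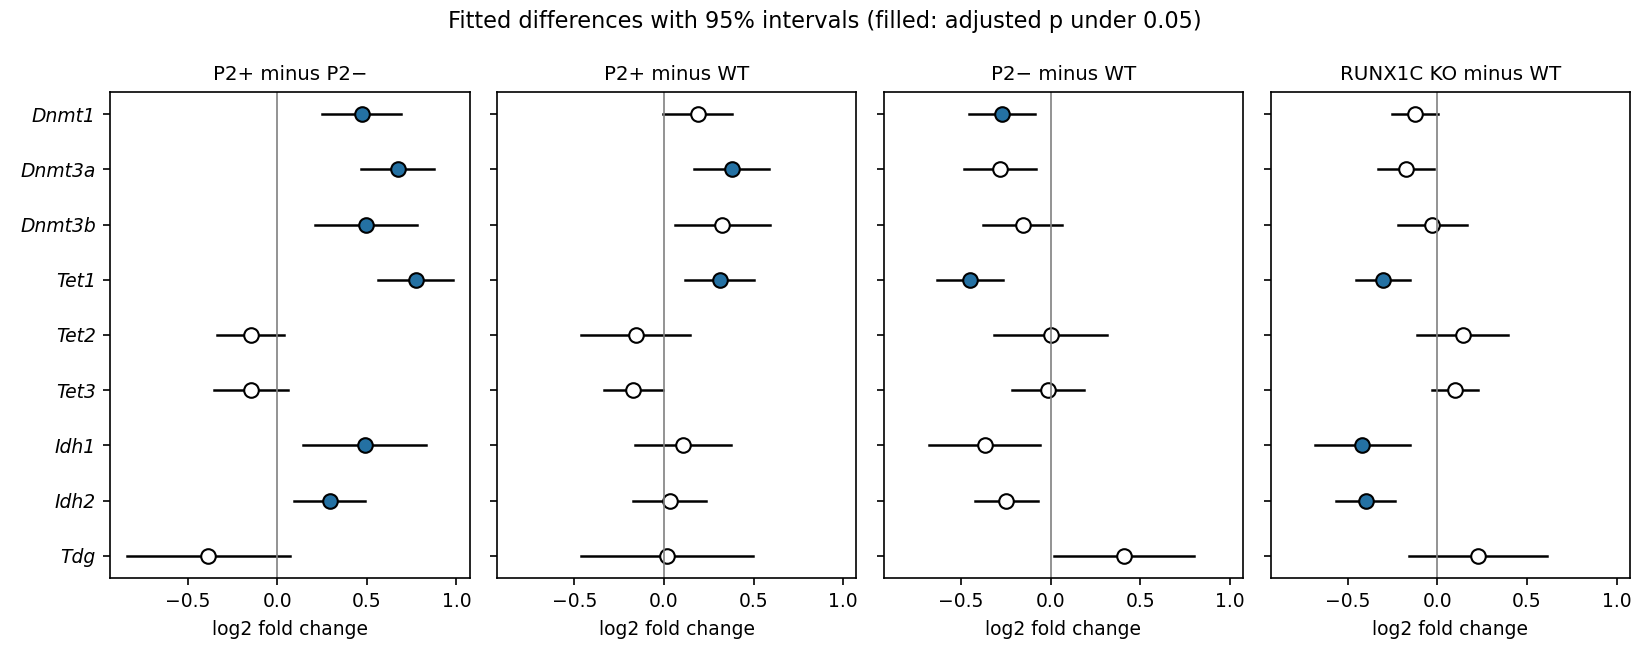
Fitted log2 fold changes of the 9 enzymes in 4 comparisons, with 95% intervals on the x axis. Filled points passed at an adjusted p under 0.05: 6 between P2+ and P2-, 2 between P2+ and WT, 2 between P2- and WT and 3 between KO and WT.

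Without the replicate block, Tet2 and Tet3 passed in none of the 4 comparisons over all libraries. Tet1 (ENSMUSG00000047146, chr10:62804570-62908996, minus strand), which carries a CpG-binding CXXC domain, was the one enzyme called in all 4 comparisons. WT libraries held 129, 124 and 115 CPM, P2- 97.8, 87.0 and 84.7, P2+ 168, 141 and 148 and KO 101, 104 and 95.2. All P2+ libraries were above all WT libraries, which in turn were above all KO and P2- libraries, and the last 2 groups overlapped. Tet1 was 1.71-fold higher in P2+ than in P2- (log2 0.77 ± 0.09, adjusted p = 0.000269), the largest of the 9 differences. Against WT it was higher in P2+ (log2 0.31 ± 0.09, adjusted p = 0.0339) and lower in P2- (log2 -0.45 ± 0.08, adjusted p = 0.00558) and KO (log2 -0.30 ± 0.07, adjusted p = 0.00756). Leaving out any 1 library did not end the calls between P2+ and P2- or between P2- and WT. The KO call was lost without KO replicate 3 (log2 -0.27, adjusted p = 0.0578), and the P2+ call against WT was lost without any 1 library other than P2+ replicate 2 (adjusted p from 0.0631 to 0.114).

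For Tet2 (ENSMUSG00000040943, chr3:133463679-133545139, minus strand), which lacks a CXXC domain, the values were 81.0, 84.8 and 55.2 CPM in WT, 68.5, 78.3 and 73.7 in P2-, 65.2, 66.7 and 65.3 in P2+ and 88.3, 82.3 and 74.4 in KO. WT replicate 3 was the lowest of all 12 libraries. P2+ lay below P2- without overlap, but the difference did not pass (log2 -0.15, 95% interval -0.33 to 0.04, adjusted p = 0.195). No other comparison passed, with log2 fold changes from -0.16 for P2+ to 0.14 for KO against WT. Without WT replicate 3, P2+ was below WT by -0.33 (adjusted p = 0.0343).

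Tet3 (ENSMUSG00000034832, chr6:83362373-83459084, minus strand) was the most abundant Tet transcript. It gave 418, 414 and 377 CPM in WT, 434.5, 351 and 410 in P2-, 364, 339 and 368 in P2+ and 441, 435 and 426 in KO. The 3 P2+ libraries were below all WT libraries and the 3 KO libraries above them, yet neither difference passed (log2 -0.17, 95% interval -0.33 to -0.01, adjusted p = 0.144, and log2 0.10, -0.03 to 0.22, adjusted p = 0.318). P2- ranged from 351 to 434.5 CPM and overlapped each of the other groups.

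The summed Tet level per length overlapped among the 4 groups, at 36.5 ± 2.75 RPKM in WT, 34.0 ± 2.57 in P2-, 35.1 ± 1.60 in P2+ and 37.3 ± 1.11 in KO (SD, n = 3). The make-up of that sum differed. Tet1 supplied 21.8% ± 0.576 of it in WT, 17.1% ± 1.06 in P2-, 28.0% ± 1.49 in P2+ and 17.4% ± 0.467 in KO. Shares did not overlap between P2+, WT and the other 2 groups, whereas those of P2- and KO did. Tet3 supplied 66.3%, 70.0%, 60.9% and 69.7% in the same order, and Tet2 between 11.1% and 13.0%.

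**Figure D3:**
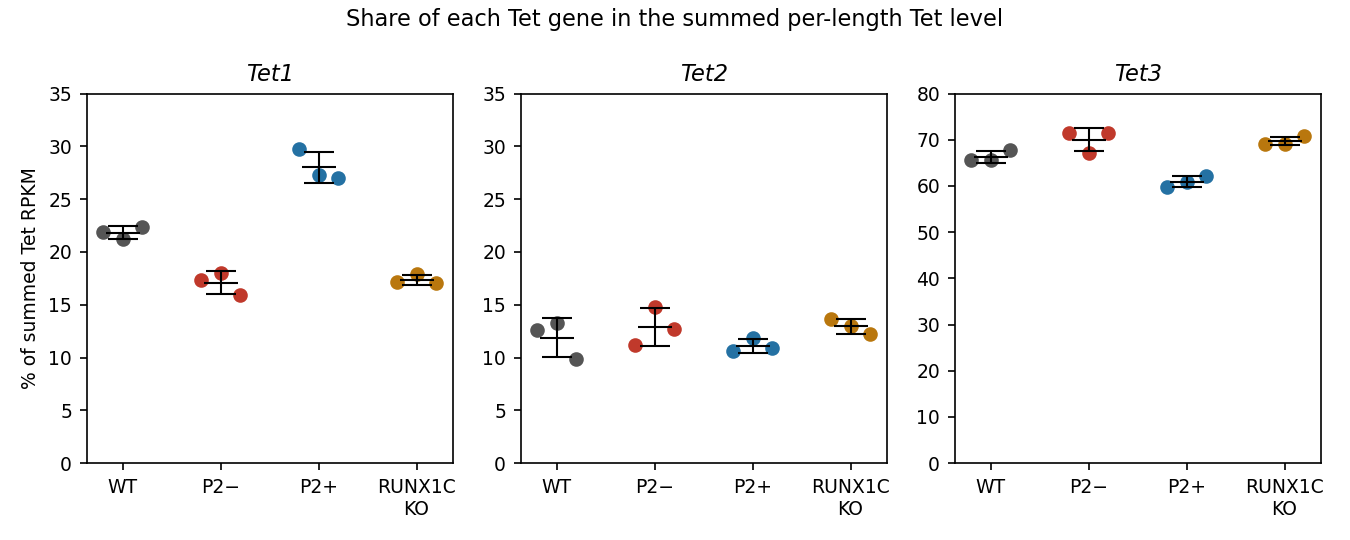
Share of Tet1, Tet2 and Tet3 in the summed RPKM of the 3 Tet genes, by group, with libraries as points and mean ± SD as bars. Tet1 rises to 27.0% to 29.7% in P2+ libraries against 15.9% to 18.0% in P2- libraries.

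Of the isocitrate dehydrogenases, Idh1 (ENSMUSG00000025950, chr1:65158616-65186500, minus strand), the cytosolic enzyme, was the weaker at 25.6, 24.7 and 25.7 CPM in WT, 23.1, 16.8 and 18.8 in P2-, 28.1, 24.2 and 29.5 in P2+ and 17.6, 21.8 and 17.7 in KO. P2- and KO were below WT and P2+ without overlap, and overlapped each other. P2+ was 1.40-fold higher than P2- (log2 0.49 ± 0.15, adjusted p = 0.0325), and KO was lower than WT (log2 -0.42 ± 0.13, adjusted p = 0.0314). The first call was lost without P2- replicate 2 or 3 or P2+ replicate 1 or 3 (adjusted p from 0.0900 to 0.109) and the second without any 1 library other than KO replicate 2 (adjusted p from 0.0613 to 0.133) or with 1 fit over all 12 libraries (adjusted p = 0.0791). P2- against WT gave -0.37 (95% interval -0.68 to -0.06, adjusted p = 0.100), and -0.50 (adjusted p = 0.0467) without P2- replicate 1.

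Idh2 (ENSMUSG00000030541, chr7:80094846-80115392, minus strand), the mitochondrial enzyme, had the highest mean of the 9 per length in each group. It was measured at 127, 114.5 and 132 CPM in WT, 105, 100.3 and 108 in P2-, 138, 113 and 130.0 in P2+ and 86.5, 99.7 and 98.1 in KO. KO lay below P2-, and P2- below WT, without overlap, while WT and P2+ overlapped. Idh2 fell in KO relative to WT (log2 -0.40 ± 0.08, adjusted p = 0.00159), and this call held without each library in turn. The difference between P2+ and P2- was smaller (log2 0.29 ± 0.09, adjusted p = 0.0294) and was lost without any 1 library but P2+ replicate 2 (adjusted p from 0.0610 to 0.0955) and in the edgeR exact test (adjusted p = 0.0660). In P2- against WT Idh2 did not pass (log2 -0.25, 95% interval -0.42 to -0.07, adjusted p = 0.0568). The mean levels of Idh2 per length were 48.1, 40.4, 49.0 and 36.6 RPKM in WT, P2-, P2+ and KO, against 38.7, 32.0, 43.9 and 35.6 RPKM for Dnmt1. In KO replicate 1 the order was the other way (33.4 RPKM for Idh2 and 34.8 for Dnmt1). KO and P2- were not compared by a test.

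Tdg (ENSMUSG00000034674, chr10:82629828-82650799, plus strand) was the least abundant enzyme, at 10.4, 9.63 and 7.94 CPM in WT, 11.1, 12.9 and 13.1 in P2-, 11.6, 9.18 and 7.40 in P2+ and 12.3, 9.49 and 11.1 in KO. All P2- libraries exceeded all WT libraries, and neighbours in the order of the means overlapped. No difference passed, the largest being 0.41 for P2- against WT (95% interval 0.02 to 0.80, adjusted p = 0.144) and -0.38 for P2+ against P2- (-0.84 to 0.07, adjusted p = 0.169). These counts are uncertain. A Tdg transcript of 3502 bases shares 2968 of them with the processed pseudogene Tdg-ps at 98.7% identity, 1194 bases with Gm9855 at 99.2% and 1193 bases with Gm5597 at 99.3%, and the counting could divide reads among them. Glt8d2, on the opposite strand, shares 367 exonic bases with Tdg and had 6 to 47 counts. Gm9855 held 162 to 405 counts, and Tdg itself 21.0% to 33.1% of the counts of the 4 genes.

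When the 4 were summed, an alternative chosen after the data were seen, the level was 34.0, 29.1 and 30.7 CPM in WT, 53.1, 40.4 and 47.6 in P2-, 37.5, 31.4 and 25.9 in P2+ and 40.0, 44.0 and 41.0 in KO. Every P2- and KO library was then above every WT and P2+ library. The sum was lower in P2+ than in P2- (log2 -0.56 ± 0.16, adjusted p = 0.0204) and higher than in WT in P2- (log2 0.59 ± 0.12, adjusted p = 0.00782) and in KO (log2 0.41 ± 0.10, adjusted p = 0.0127). P2+ against WT was 0.02 (95% interval -0.30 to 0.34, adjusted p = 0.945). Which of the 4 loci gave these reads cannot be told from the table.

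**Figure D4:**
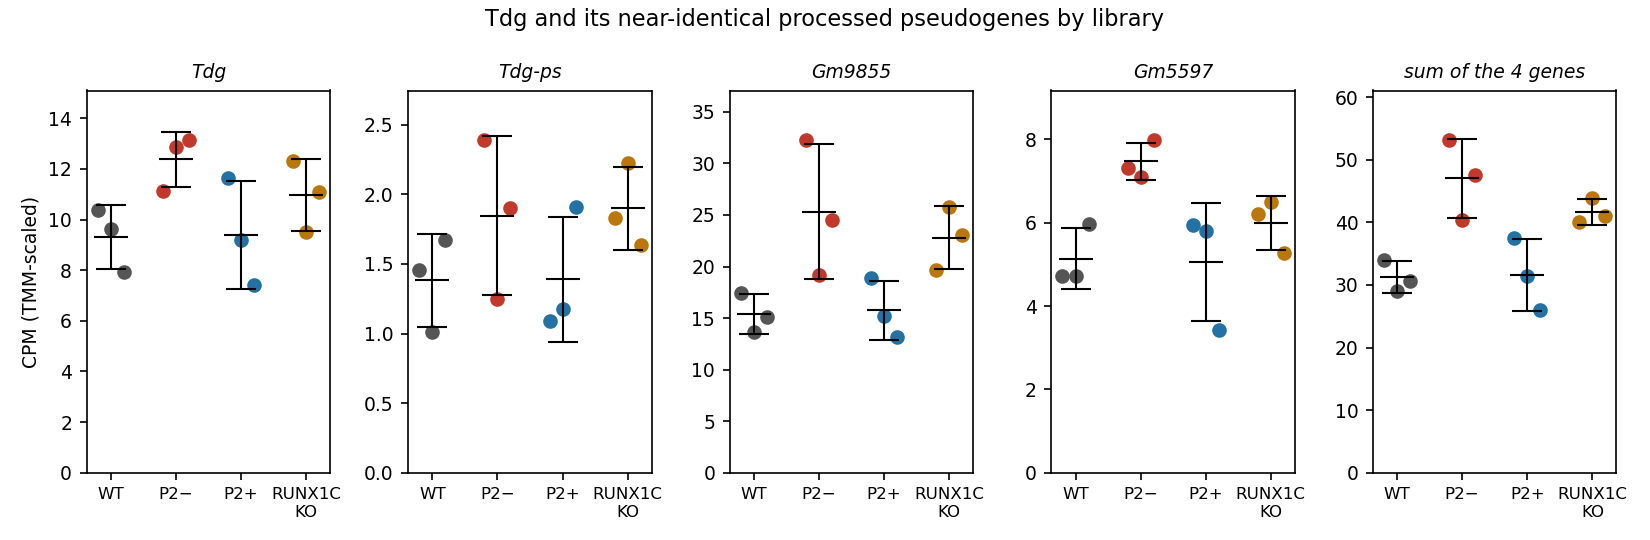
CPM of Tdg, its near-identical processed pseudogenes Tdg-ps, Gm9855 and Gm5597, and their sum in the 12 libraries, by group, with libraries as points and mean ± SD as bars (each panel has its own y axis from 0). The sum lies between 40.0 and 53.1 CPM in P2- and KO libraries and between 25.9 and 37.5 CPM in WT and P2+ libraries.

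The remaining genes of the pathway were followed in 7 lists, whose counts are descriptions to be read against the 20.1% of all genes called higher and 17.0% called lower between P2+ and P2-, and against a median of -0.02. The corresponding shares against WT are those given above. The lists overlap: Lig1 and Fen1 of base excision and Pcna of the methyltransferase partners are also on the DNA replication list. Between P2+ and P2-, 4 of 13 tested partners of the methyltransferases rose and 2 fell (median log2 0.03). The largest rises among those called were those of Zfp57, which guards methylation at imprinted regions (3.65 ± 0.175 against 0.769 ± 0.190 CPM, log2 2.23), and Hells, a remodeller needed for DNA methylation (101 ± 14.0 against 58.7 ± 3.52 CPM, log2 0.80). Zfp57 passed the filter only through the P2+ libraries, so that its call was bound to be in this direction. The histone methyltransferase Setd2 (log2 -0.33) and the deubiquitinase Usp7 (log2 -0.24) fell. Hells also had the largest rise among the called list genes in P2+ against WT (log2 0.64 ± 0.11, adjusted p = 0.00274).

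Of 10 tested partners of the Tet enzymes, 3 rose in P2+ relative to P2- and 2 fell (median -0.04). Cxxc5, a CXXC protein that binds Tet2, was at 160 ± 10.6 CPM in P2+ and 74.7 ± 5.96 in P2- (log2 1.11), whereas the ubiquitin ligase subunits Cul4a (log2 -0.79) and Ddb1 (log2 -0.39) fell. Ebf1, a B cell factor also on the lymphoid marker list, was called higher (log2 2.39 ± 0.83, adjusted p = 0.0497) with a spread as large as its mean (4.80 ± 4.90 CPM in P2+, 0.902 ± 0.602 in P2-). It was at 10.3, 3.17 and 0.915 CPM in P2+ and at 1.59, 0.480 and 0.635 CPM in P2-, so the groups overlapped. In P2- against WT it had the largest fall among the called list genes (log2 -2.07), from 1.66, 7.09 and 2.91 CPM in WT. Since the filter was met through the 3 WT libraries alone, with 1 P2- library above 1 CPM, this direction was largely set by the filter. In KO against WT the largest fall among them was that of Spi1, the myeloid factor PU.1 (22.1 ± 0.798 against 30.2 ± 3.37 CPM, log2 -0.46).

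Base excision and deamination genes gave 2 rises and 4 falls among 21 tested (median -0.09). The glycosylase Neil3 rose from 15.0 ± 1.21 to 36.8 ± 2.29 CPM (log2 1.30) and the ligase Lig1 by a log2 fold change of 0.34. Gadd45a, a stress gene linked to active demethylation, was at 25.5 ± 11.2 CPM in P2+ and 87.5 ± 21.1 in P2- (log2 -1.76), and the glycosylase Neil1 fell as well (log2 -0.64). Gadd45a was also the called list gene with the largest fall in P2+ against WT (log2 -1.14) and the largest rise in P2- against WT (log2 0.63). In KO against WT the largest rise among the called list genes was that of Apobec2 (log2 1.83, 1.63 ± 0.546 against 0.450 ± 0.209 CPM), which passed the filter only through the KO libraries and so had to be higher there. Among 10 readers of methylated DNA, 0 rose and 2 fell in P2+, Mbd2 (log2 -0.73) and Zbtb4 (log2 -0.45), with a median of 0.02.

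Genes of 2-oxoglutarate supply and of the methyl donor cycle had more falls than rises among those called. Of 26 tested genes of 2-oxoglutarate and citric acid metabolism, 0 rose, 10 fell and 16 were not called in P2+ relative to P2- (median -0.26), led by the aconitase Aco1 (26.7 ± 1.39 against 56.0 ± 4.97 CPM, log2 -1.05), which is also an iron sensor, and the succinate dehydrogenase subunit Sdhd (log2 -0.65). Against WT, 0 rose and 2 fell in P2+, 6 rose and 0 fell in P2-, and 1 rose and 0 fell in KO. The cycle that makes and recycles S-adenosylmethionine, the methyl donor, had 1 rise and 6 falls among 10 tested, with 3 not called (median -0.38). Ahcyl1 rose (log2 0.27), and Ahcyl2 (log2 -0.84) and the methionine synthase reductase Mtrr (log2 -0.76) fell. In this list 0 rose and 3 fell in P2+ against WT, and 2 rose and 0 fell in both P2- and KO against WT.

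DNA replication genes were followed because Dnmt1 acts behind the replication fork. Of 25 tested, 9 rose and 0 fell in P2+ relative to P2- (median 0.27), among them the thymidine kinase Tk1 (48.6 ± 10.6 against 26.3 ± 3.92 CPM, log2 0.90) and the thymidylate synthase Tyms (log2 0.62). Against WT, 4 rose and 0 fell in P2+ (median 0.20), 1 rose and 1 fell in P2- (median -0.05), and 0 rose and 0 fell in KO (median -0.07). The summed level of the 25 genes was 2827 to 3099 CPM in WT, 2810 to 3185 in P2-, 3115 to 3482 in P2+ and 2839 to 2969 in KO libraries. The part of replication in the levels of Dnmt1 was not tested.

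**Figure D5:**
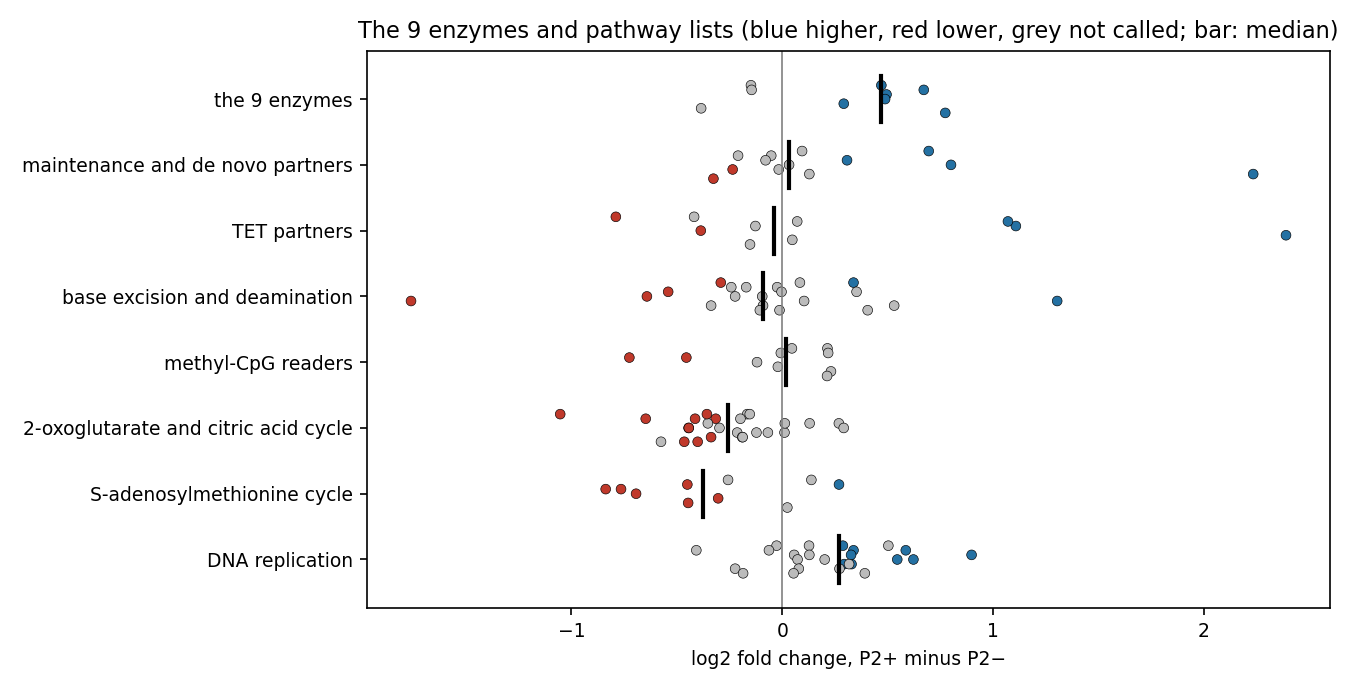
Log2 fold changes between P2+ and P2- of the 9 enzymes and of the genes of 7 pathway lists (x axis; 1 point per gene, vertical scatter for legibility). Blue and red points were called higher and lower, grey points were not called, and black bars are list medians, from -0.38 for the S-adenosylmethionine cycle to 0.47 for the enzymes.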

How the data were processed

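PreMegEs were sorted from pooled marrow and profiled as strand-specific poly(A) libraries with 16 cycles of amplification (75 bp paired-end reads). The authors aligned reads to GRCm38 with Bowtie2 (version 2.21 in the submitters' processing notes) and deposited whole-number counts per Ensembl gene from featureCounts. How strand and reads with several matches were counted is not given in the sources used here. From the deposited counts, each pair of groups (3 libraries each) was fitted with edgeR 4.0.16 (R 4.3.3): a filter of 1 CPM reached in 3 or more libraries of the 6, TMM scaling, the quasi-likelihood F-test and Benjamini-Hochberg adjustment over all genes tested, called at 0.05. CPM were TMM-scaled over 12 libraries, and RPKM divide them by GENCODE vM21 union exon length on the same build. The fit was tested on simulated data. Libraries of a group are separate pools of mice, and p-values measure the spread between pools. In the fit of P2+ against P2- without a block, that spread includes deviations shared by samples of the same number. Leaving out 1 library of these groups also breaks such a pair.

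P2+ and P2- samples of the same number had deviations from their group means that correlated at 0.451, 0.666 and 0.458 over 13272 genes, so those numbers pair the samples. The labels do not say what a number marks. The main fit had no block. Alternatives were other scalings, no filter, DESeq2 1.42.0, the edgeR exact test, 1 fit over 12 libraries, the replicate block and leaving out each library. KO was not tested against the fractions. Named genes were the 9 enzymes, the called list genes with the 2 largest rises and 2 largest falls per list between P2+ and P2-, the largest rise and fall over all lists in each other comparison, and the 5 genes with the profile nearest to Tet1. Members and lists were chosen with earlier results of these data known.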

Additional observations from a re-analysis of the deposited data

How the results depend on the processing

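The replicate block called 7 enzymes (Tet3 added) and 6514 genes between P2+ and P2- (6 and 4762 without it). In the comparisons with WT, samples of the same number deviated together less (deviation correlations from -0.129 to 0.192). The block called 2, 1 and 3 enzymes (1901, 1469 and 2091 genes) in P2+, P2- and KO against WT. There it ended the Dnmt1 call in P2- (adjusted p = 0.105) and turned the uncalled log2 fold change of Tet2 from -0.00 to 0.0207 (adjusted p = 0.940). It changed no other call among the enzymes. In P2- against WT, upper quartile scaling, total counts alone and DESeq2 each called 4 enzymes, adding Dnmt3a and Idh2 (1987, 1981 and 2407 genes in all, against 2101), no filter and 1 fit over 12 libraries each called 3, adding Dnmt3a (2387 and 2586 genes), and the edgeR exact test called 1 (Dnmt1 lost, 1929 genes). The exact test also called 1 in P2+ against WT (Tet1 lost, 2116 genes against 2138), 5 between P2+ and P2- (Idh2 lost, 4244 genes) and 3 in KO against WT (2007 genes against 1910). No filter called 3 in P2+ against WT (Dnmt3b added, 2424 genes), and 1 fit over 12 libraries called 2 in KO against WT (Idh1 lost, 1276 genes). Leaving out each library in turn gave 3 to 6 enzymes between P2+ and P2- (3573 to 4328 genes), 0 to 4 in P2+ against WT (1213 to 2447 genes), 1 to 3 in P2- against WT (1068 to 2189 genes) and 1 to 3 in KO against WT (1194 to 1648 genes). These fits rest on 5 libraries. Without replicate 2 of both fractions 6 enzymes and 4554 genes were called. The 15 changes of sign concerned fold changes that were never called (smallest adjusted p = 0.645). Leaving out 1 library gave log2 fold changes from -0.0279 to 0.107 for Idh2 and from -0.159 to 0.157 for Tdg in P2+ against WT, from -0.173 to 0.111 for Tet2 and from -0.0794 to 0.0610 for Tet3 in P2- against WT, and from -0.0942 to 0.0576 for Dnmt3b and from -0.0311 to 0.257 for Tet2 in KO against WT, and no filter gave 0.000922 for Tet2 in P2- against WT. The cause of these changes was not tested. Counts of about 100 for Tdg limit its precision.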

Other observations

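The WT mean of each of the 6 enzymes that differed between the fractions lay between the P2- and P2+ means. On the CPM scale from P2- (0%) to P2+ (100%), WT stood at 29.6% for Dnmt3b, 37.8% for Dnmt3a, 53.1% for Tet1, 55.9% for Dnmt1, 75.2% for Idh1 and 88.7% for Idh2. KO stood below WT on this scale for each of them, at 25.5%, 14.8%, 16.8%, 30.5%, -7.08% and -43.7%. For Dnmt3b the KO and WT means were close, at 66.4 and 67.4 CPM. Leaving out 1 library could turn the sign of the fitted difference (log2 fold change from -0.0942 to 0.0576). For Tet2, Tet3 and Tdg the WT mean lay outside the interval, at -1.99%, -11.1% and 103%. Their differences between P2+ and P2- did not pass the test, so the scale is uncertain for them. These positions are ratios of group means, given without a test and without a spread over libraries. The share of all called genes with a WT mean between the fractions was not counted.

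Among 9530 genes with a mean of at least 10 CPM, those whose log2 profile over the 12 libraries was nearest to that of Tet1 were Slc25a13, a mitochondrial aspartate and glutamate carrier (root mean square distance 0.0575), the RNA-binding protein Msi2 (0.0772), the spindle protein Knstrn (0.0788), Leprotl1 (0.0808) and Gabpb1, a subunit of the Ets-family complex GABP (0.0820). The genes were chosen for this likeness and the libraries share their groups, so it is a description.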
